A study of Mus musculus with 2 samples.

Results

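The collagen genes were followed through the cells of mouse pancreatic tumors to see which cells made each of them. Every gene whose symbol reads Col, a number, the letter a and a number was taken, provided that it had at least 20 unique molecular identifiers (UMIs, each a counted RNA molecule) over all barcodes with at least 1000 UMIs and at most 5% mitochondrial UMIs. Of the 44 genes with such a symbol among the 32285 genes of the matrix, 39 met this rule. They comprised 10 fibrillar, 8 FACIT, 5 beaded filament, 5 basement membrane, 4 transmembrane, 3 short-chain network and 2 multiplexin collagens, 1 anchoring fibril collagen and 1 other. Col9a2 was the last gene inside the threshold, with 28 UMIs. Col4a3 was the first outside it with 14 UMIs, followed by Col19a1 with 10, Col26a1 with 6, Col2a1 with 2 and Col6a4 with 1.

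Single-cell RNA sequencing was performed on 1 library of tumors treated with insufficient irreversible electroporation (iIRE), a deliberately incomplete ablation by 99 electric pulses between needles 5 mm apart, and on 1 control library. The methods describe sham controls that received the needles without pulses, while the sequenced control tumors are elsewhere called untreated, so whether they received the needles is not settled by the sources. Both came from orthotopic pancreatic tumors of 7 to 9 mm, grown in male C57BL/6 mice of 5 to 7 weeks from KPC cells, a mouse pancreatic ductal adenocarcinoma (PDAC) line that carries, among other alleles, a mutant Trp53 allele and Pdx1-Cre. The tumors were collected 3 days after the procedure, and the number of mice behind each library was not named in the sources used here. With 1 library per group there is no test between the groups, and the differences below compare these libraries.

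Collagens are extracellular proteins of 3 chains wound into a triple helix, and each chain has a gene of its own. Fibrillar collagens give connective tissue its strength, basement membrane collagens form the sheets below epithelia and endothelia, and the other families connect, anchor or space these structures. In pancreatic cancer the dense collagen-rich stroma is mostly attributed to activated fibroblasts, although cancer cells can transcribe collagen genes as well.

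Tumor cells were taken as cells with at least 3 UMIs of Cdkn2a, a cell cycle inhibitor gene, and cells with none were taken for the host side. The 4 Y-linked genes measured, which male host cells transcribe, gave a further label, and clusters without Cdkn2a counted as host only with at least 30 CPM of them. The cells left out on that ground, 195 in iIRE and 220 in control, had Y-linked genes at 17.9 and 23.3 CPM and collagens at 7278 and 10019 CPM, and belong to no class below. After filtering, 15991 iIRE and 15274 control cells were kept. Host cells were clustered separately from tumor cells, and the collagen genes were left out of the clustering. The host fibroblast cluster held 55 iIRE and 25 control cells, led by Postn, Itm2a, Crabp1 and Penk, with 9 genes of the fibroblast marker list among its 50 leading genes. Acta2 and Tagln of the pericyte and smooth muscle list were also among them. All 20 fibroblast markers were detected in it, with a summed level of 15764 CPM (counts per 1000000 UMIs of the class) in iIRE and 21566 CPM in control cells. The 12 pericyte markers summed to 2420 and 1361 CPM in the same cells, with 4 of them at 0 in each library, and their part in the results was not tested. Its Y-linked genes stood at 122 CPM in iIRE and 124 CPM in control cells, and its median depth was 11481 and 12491 UMIs per cell.

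Of the cells that met the Cdkn2a threshold, 7050 iIRE and 6279 control cells lay in clusters that also held host RNA or had fewer than 100 cells. Together these cells had Y-linked genes at 10.3 and 9.62 CPM and macrophage markers at 865 and 762 CPM. They are called mixed here. The tumor cells outside these clusters, 5870 iIRE and 6059 control cells, had Y-linked genes at 0.163 and 0.161 CPM and macrophage markers at 20.4 and 25 CPM. Unless stated otherwise, tumor cells means these. Their median depth was 17169 UMIs in iIRE and 19830 UMIs in control cells. Droplets also hold free RNA from other cells. Macrophage-like cells held 17.4 CPM of Col1a1 in iIRE and 44.1 CPM in control. Levels of this size are read as background below, although whether these cells transcribe Col1a1 themselves was not tested.

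Of the tumor cells, 4 groups were compared. Clusters were assigned to them by marker lists, and the names used here were chosen after the leading genes had been seen. The pair of clusters led by Lum and either Acta2 or Dcn (Lum-leading) held 899 iIRE and 1003 control cells, with Y-linked genes at 0.069 and 0.163 CPM. The pair with Krt19 or with Krt7 and Epcam (epithelial-type) held 249 and 223 cells and no Y-linked UMI. The clusters with Ndrg1, Ero1l or P4ha2 (hypoxic) held 693 and 975 cells, and those with division genes such as Top2a (dividing) held 1277 and 1329 cells. Many tumor cells lay in clusters outside these groups. The largest tumor cluster was one of them, with 1057 iIRE and 957 control cells and collagens at 11620 and 11667 CPM. Among the host cells, a small cluster of 18 iIRE and 13 control cells expressed Msln and Wt1, known from mesothelium, besides Dcn and Mgp. It was kept apart from the fibroblasts as the Msln-Wt1 host cluster. An endothelial-like cluster led by Plvap, Esm1 and Egfl7 held 19 and 25 cells.

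Host fibroblasts had the highest collagen level of any class compared. Collagens took 63013 CPM (95% interval 62426 to 63604) of their UMIs in iIRE and 74991 CPM (74061 to 75929) in control cells, which is 6.30% and 7.50% of all their molecules. Tumor cells held 9088 and 9790 CPM. The ratio of host fibroblasts to tumor cells was thus 6.93-fold in the iIRE library and 7.66-fold in the control library. Per cell, the collagen share of UMIs had quartiles of 3.95%, 5.61% and 7.38% in iIRE and 4.95%, 6.98% and 9.30% in control fibroblasts, against 0.233%, 0.608% and 1.5% in iIRE and 0.237%, 0.652% and 1.59% in control tumor cells. The interquartile ranges of the 2 cell types did not overlap. Intervals here and below cover counting error only. The UMIs of a gene bunch in cells, and the spread between mice is not known.

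Within the tumor the level depended on the type of cell. The Lum-leading tumor cells held 22989 CPM in iIRE and 26122 CPM in control, the hypoxic cells 9836 and 9923 CPM, the dividing cells 6258 and 5677 CPM and the epithelial-type cells 1171 and 1229 CPM. The Msln-Wt1 host cluster held 27637 CPM in iIRE and 19044 CPM in control, and the endothelial-like cells 6762 and 7690 CPM. In macrophage-like cells the 39 genes together stood at 209 and 263 CPM. The order host fibroblast, Lum-leading tumor and epithelial-type tumor was the same in both libraries. The hypoxic group was uneven. One of its clusters, 202 of 693 cells in iIRE and 282 of 975 in control, held 3849 of 5844 and 6649 of 11108 Col5a1 UMIs. Over both libraries this cluster stood at 1404 CPM of Col5a1 and 8210 CPM of Col1a1, against 1301 and 9302 CPM in the larger Lum-leading cluster.

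Over both libraries, 21 of the 39 genes were highest in host fibroblasts when 8 host classes and 18 tumor clusters were ranked by CPM. Another 9 were highest in a tumor cluster, 4 in the Msln-Wt1 host cluster, 3 in endothelial-like cells, and Col11a2 and Col9a3 in neutrophil-like and dendritic-like cells on 2 UMIs and 1 UMI. Each library taken alone also gave 21 genes to host fibroblasts. The ranking of rare genes rests on few molecules. Col4a4 was ranked first in host fibroblasts on 1 UMI, and Col17a1, Col22a1 and Col9a2 in a tumor cluster on 9, 6 and 5 UMIs.

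**Figure D1:**
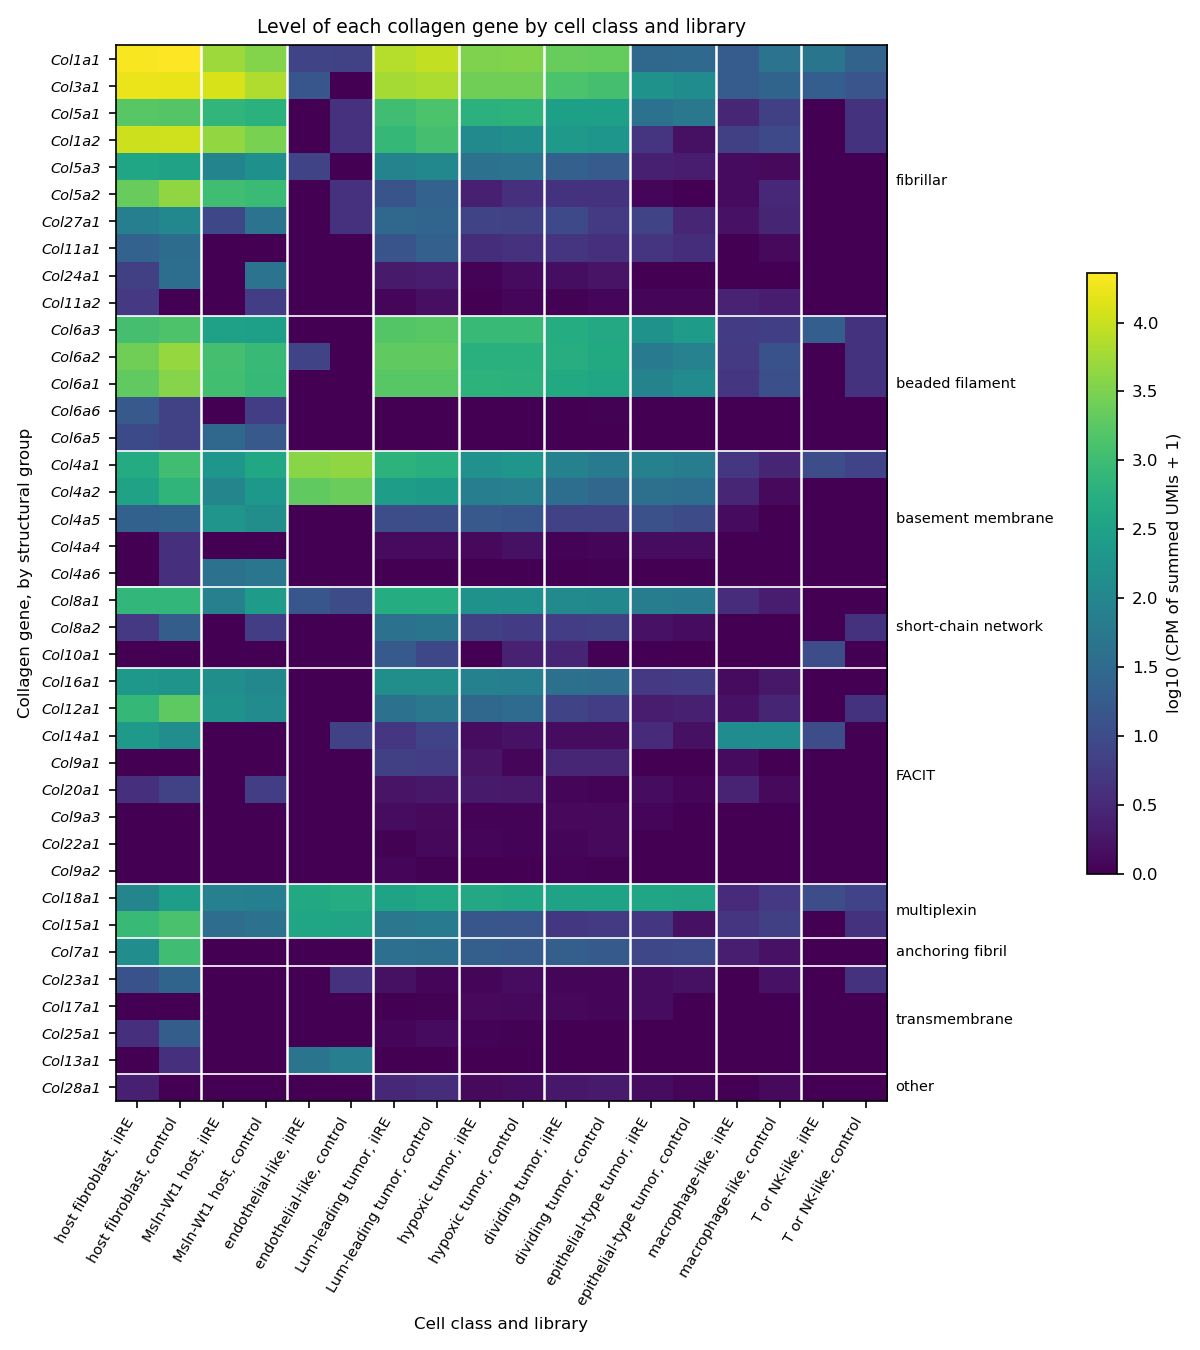
Levels of the 39 collagen genes (rows, by structural group) in 9 cell classes, each with the iIRE library left of the control library. Color is log10 of CPM of summed UMIs plus 1. Most fibrillar genes are brightest in host fibroblasts, Col4a1 and Col4a2 in endothelial-like cells, and Col18a1 is nearly even across the tumor columns.

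The fibrillar collagens were the most abundant. Col1a1 (ENSMUSG00000001506, chr11:94936224-94953042 on mm10), the main chain of type I collagen, stood at 20773 CPM in iIRE and 23045 CPM in control host fibroblasts, against 3018 and 3446 CPM in tumor cells. Col3a1 (ENSMUSG00000026043, chr1:45311538-45349706), the chain of type III collagen, stood at 17415 and 16785 CPM in host fibroblasts, against 2352 and 2481 CPM in tumor cells. Both genes were thus higher in the fibroblasts and abundant in the tumor cells. In the Lum-leading tumor cells Col1a1 reached 7594 CPM in iIRE and 9183 CPM in control, and Col3a1 reached 5962 and 6789 CPM. After thinning to 2000 UMIs per cell, Col1a1 was found in 97.8% of Lum-leading tumor cells in iIRE and 96.5% in control (98.9% and 98.3% without thinning), against 3.44% and 4.32% of macrophage-like cells (9.04% and 12.5%). The median depth of these classes was 15827 and 17885 UMIs in the Lum-leading cells and 5351 and 5817 UMIs in the macrophage-like cells.

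In the epithelial-type tumor cells Col1a1 stood at 28.1 CPM in iIRE and 29.9 CPM in control, close to the macrophage-like background, and was found in 3.61% and 2.69% of cells after thinning (18.1% and 16.1% without). Col3a1 stayed above it in these cells, at 168 and 129 CPM against 17.7 and 24.0 CPM in macrophage-like cells, and in 20.1% and 16.6% of thinned cells (46.6% and 48.0% without) against 3.24% and 3.09% (9.23% and 9.48%). The median depth of the epithelial-type cells was 18042 and 21115 UMIs.

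Col1a2 separated host fibroblasts from tumor cells more than either of these. It encodes the second chain of type I collagen, whose common form has 2 chains from Col1a1 and 1 from Col1a2. A form built from Col1a1 chains alone is also known. Col1a2 (ENSMUSG00000029661, chr6:4504814-4541544) stood at 10594 CPM in iIRE and 11207 CPM in control host fibroblasts, against 219 and 288 CPM in tumor cells. It made up 33.8% (33.1 to 34.4%) of the Col1a1 and Col1a2 molecules of iIRE fibroblasts and 32.7% (31.9 to 33.6%) of those of control fibroblasts. The share was 6.76% and 7.72% in tumor cells, 9.60% and 11.3% in the Lum-leading cells, 9.41% and 8.49% in dividing cells and 3.35% and 4.19% in hypoxic cells. There were 1.96 and 2.06 Col1a1 molecules per Col1a2 molecule in fibroblasts, and 13.8 and 12 in tumor cells. These are counts of molecules tagged near their start, not divided by transcript length.

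The difference was visible cell by cell. Among cells with at least 20 UMIs of the pair, the Col1a2 share ranged from 17.7% to 47.7% in 54 iIRE fibroblasts and from 25.2% to 42.1% in 25 control fibroblasts, with medians of 33.4% and 32.9%. Of the tumor cells with as many, 2237 of 3517 in iIRE (63.6%) and 2225 of 3806 in control (58.5%) had no Col1a2 UMI. Those same cells held 4054 and 4259 CPM of Col1a1 and 3138 and 3114 CPM of Col3a1, with median depths of 17052 and 19672 UMIs. All 31 cells of the Msln-Wt1 host cluster had a share of 25% or more, and their summed share was 45.5% in iIRE and 46.1% in control. Among tumor cells, 170 in iIRE (4.83%) and 209 in control (5.49%) reached 25%. These cells had Y-linked genes at 0 and 0.207 CPM, Cdkn2a at 1096 and 1094 CPM and Postn, a fibroblast matrix gene, at 15.4 and 10.6 CPM, against Postn at 3579 and 7247 CPM in the 52 iIRE and 25 control fibroblasts that reached it.

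After thinning to 2000 UMIs, Col1a2 was found in every host fibroblast, in 34.9% (31.8 to 38.1%) of Lum-leading tumor cells in iIRE and 47.5% (44.3 to 50.6%) in control, and in 13.7% and 17.3% of all tumor cells. Without thinning the Lum-leading shares were 51.1% and 59.8%, and those of all tumor cells 24.8% and 29.0%. Macrophage-like cells gave 1.22% and 0.206% after thinning. The epithelial-type cells, with 17 and 3 Col1a2 UMIs in all, gave 1.61% and 0.448%, so Col1a2 was not above background there.

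**Figure D2:**
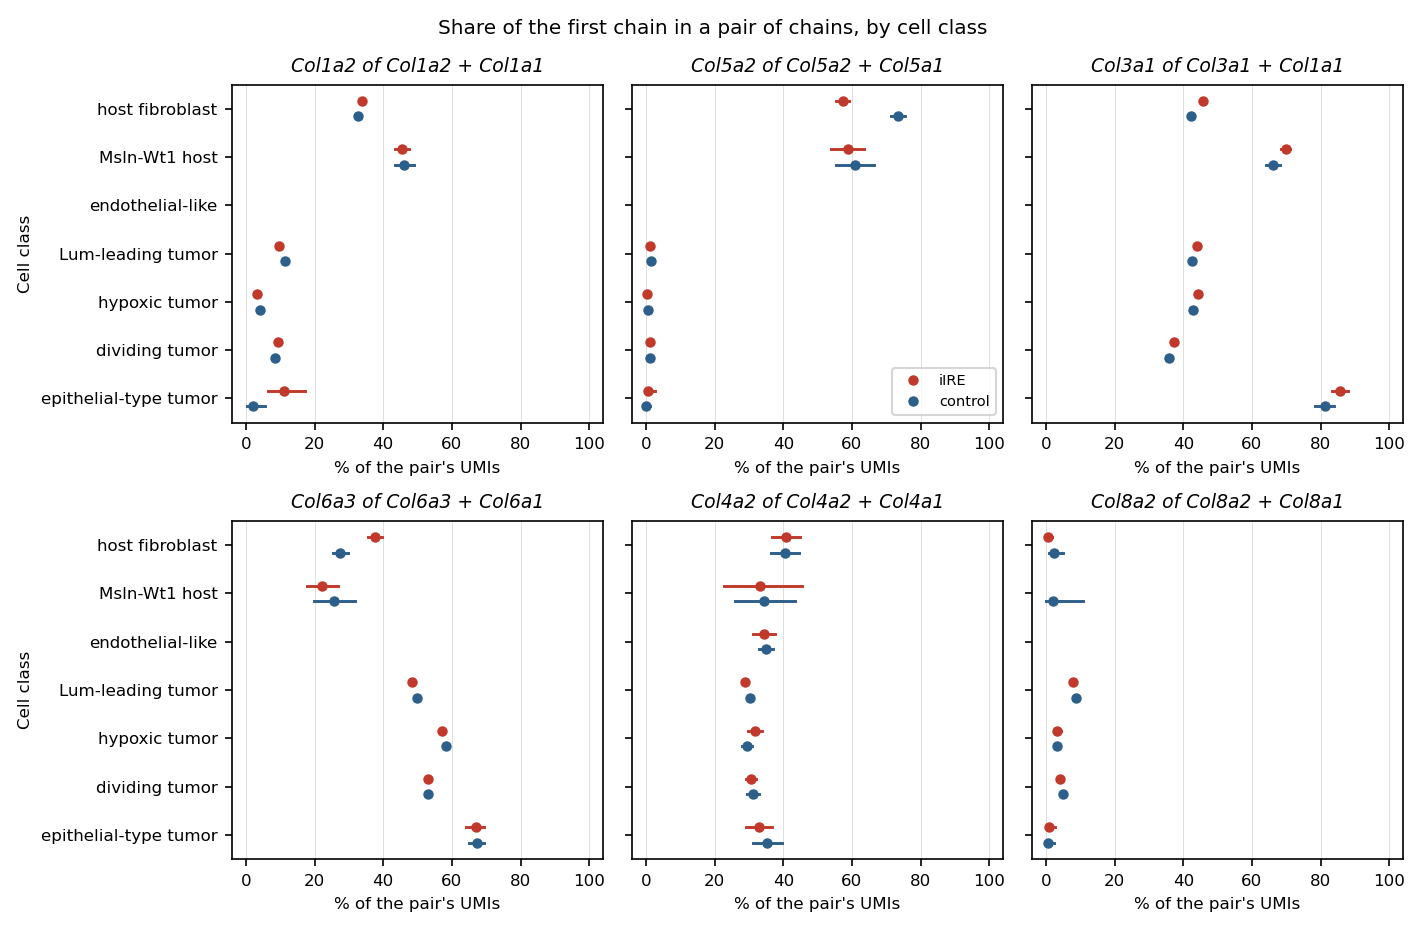
Share of one collagen chain among the UMIs of a pair of chains, in percent, in 7 cell classes (iIRE red, above control in blue), with exact 95% intervals for counting error. Pairs with under 50 UMIs are not drawn. Col1a2 and Col5a2 stand at 32.7% or more in host fibroblasts and at 11.3% or less in the Lum-leading tumor cells, while Col4a2 lies between 28.9% and 40.8% in every class drawn.

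The sequences before the Col1a2 and Col3a1 starts are shown because both genes were abundant in host fibroblasts, while tumor cells held much of Col3a1 and little of Col1a2. They are taken from RefSeq on GRCm38.p6 (the mm10 build) on the plus strand, from the 250 bases before each RefSeq start, less any bases in a GENCODE exon. For Col1a2 the RefSeq start lies downstream of the GENCODE gene start given above, so its stretch lies inside the GENCODE gene, between exons. Capitals mark the motifs searched on both strands, which were the CCAAT box, the GC box with the letters GGGCGG, and the TATA box with the letters TATAAA. The Col1a2 stretch, chr6:4505370-4505492, has 123 bases and the Col3a1 stretch, chr1:45311288-45311537, has 250.
Col1a2: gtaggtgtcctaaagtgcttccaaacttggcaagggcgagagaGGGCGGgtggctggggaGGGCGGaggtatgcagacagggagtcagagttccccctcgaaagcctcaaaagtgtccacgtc
Col3a1: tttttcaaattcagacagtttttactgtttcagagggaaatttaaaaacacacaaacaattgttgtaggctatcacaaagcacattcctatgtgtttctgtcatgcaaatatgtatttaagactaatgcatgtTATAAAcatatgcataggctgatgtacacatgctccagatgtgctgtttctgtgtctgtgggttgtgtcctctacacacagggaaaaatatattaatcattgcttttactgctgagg
The Col1a2 stretch holds 2 GGGCGG motifs, and the whole 250-base window it was cut from holds the same 2, 1 CCAAT motif in the part not shown and 11 CG pairs. The Col3a1 window holds 1 TATAAA motif and no CG pair. Over 32851 windows of 250 bases, 33.9% held CCAAT, 32.7% GGGCGG and 12.4% TATAAA, and the median number of CG pairs was 6. Of the 39 collagen genes, 33 had such a window, of which 12 held CCAAT, 20 GGGCGG and 5 TATAAA. A match describes the letters only.

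Type V collagen, which is built into type I fibrils, showed the same division of chains. Col5a1 stood at 1690 CPM in iIRE and 1585 CPM in control host fibroblasts, against 444 and 538 CPM in tumor cells. Col5a2, its partner chain (ENSMUSG00000026042), stood at 2269 and 4386 CPM in host fibroblasts on 1587 and 1453 UMIs, against 3.19 and 4.98 CPM in tumor cells on 352 and 650 UMIs. The log2 ratio of Col5a2 in host fibroblasts over tumor cells, with 10 CPM added to both, was 7.43 in iIRE and 8.20 in control, the largest of all collagens counted. It made up 57.3% and 73.5% of the Col5a1 and Col5a2 molecules in host fibroblasts, 58.8% and 61.0% in the Msln-Wt1 host cluster, and 0.714% and 0.919% in tumor cells. After thinning, 94.5% and 92.0% of host fibroblasts had a Col5a2 UMI (98.2% and 100% without), against 2.78% and 2.99% of Lum-leading tumor cells (8.90% and 13.5%) and 0% and 0.412% of macrophage-like cells (0.185% and 0.558%). Col5a2 lies next to Col3a1 on chromosome 1, tail to tail and 24.6 kb apart, and the neighbors differed widely in tumor cells.

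The remaining fibrillar genes were lower. Col5a3, another type V chain, stood at 365 and 329 CPM in host fibroblasts, against 26.5 and 29.5 CPM in tumor cells. Col27a1, a fibrillar collagen of developing cartilage, stood at 75.8 and 109 CPM in host fibroblasts, against 9.72 and 7.23 CPM in tumor cells. Its second class was the osteoclast-like cells with 40.8 and 55.5 CPM. Col11a1, a minor fibril chain often raised in cancer stroma, had 16 and 11 UMIs in host fibroblasts and 440 and 718 UMIs in tumor cells, which gave 22.9 and 33.2 CPM against 3.99 and 5.51 CPM. Col24a1 was found with 4 and 12 UMIs in host fibroblasts and with 0 and 9 in the Msln-Wt1 host cluster. Col11a2 had 3 and 0 UMIs in host fibroblasts.

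Among the beaded filament genes, the 3 chains of type VI collagen, which forms fine filaments around cells, were present in host fibroblasts and in tumor cells. Col6a1 stood at 2003 CPM in iIRE and 3728 CPM in control host fibroblasts, against 640 and 628 CPM in tumor cells. Col6a2 stood at 2611 and 4775 CPM, against 727 and 705 CPM. Col6a3 stood at 1204 and 1416 CPM in host fibroblasts, against 693 and 699 CPM in tumor cells, and was highest in the larger Lum-leading tumor cluster with 1708 CPM over both libraries.

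Col6a3 made up 37.5% (35.5 to 39.6%) of the Col6a1 and Col6a3 molecules in iIRE fibroblasts and 27.5% (25.4 to 29.7%) in control fibroblasts, but 52.0% and 52.7% in tumor cells and 66.9% and 67.2% in epithelial-type cells. The epithelial-type value reflected the Krt19 cluster, with 69.1% and 68.1%. In the Krt7 and Epcam cluster the share was low, at 16.7% in iIRE on 9 Col6a3 and 45 Col6a1 UMIs and 23.0% over both libraries. The Col6a2 share of the Col6a1 and Col6a2 molecules varied less, with 56.6% and 56.2% in host fibroblasts, 53.2% and 52.9% in tumor cells and 40.7% and 40.2% in epithelial-type cells. Col6a6 and Col6a5, further type VI chains, were rare. Col6a6 had 11 and 2 UMIs in host fibroblasts, and Col6a5 had 6 and 2 there, 7 and 3 in the Msln-Wt1 host cluster and none in tumor cells.

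The basement membrane genes Col4a1 and Col4a2 reached their highest level in another class. Col4a1 (ENSMUSG00000031502, chr8:11198423-11312826), a chain of the type IV collagen found in all basement membranes, stood at 3833 CPM in iIRE and 4369 CPM in control endothelial-like cells, against 480 and 1062 CPM in host fibroblasts, 156 and 143 CPM in tumor cells and 665 and 550 CPM in the Lum-leading tumor cells. Col4a2, its partner, stood at 2011 and 2353 CPM in endothelial-like cells, against 332 and 724 CPM in host fibroblasts and 65.1 and 62.9 CPM in tumor cells. By number of captured molecules tumor cells held more, with 17201 and 18686 UMIs of Col4a1, against 568 and 1376 in endothelial-like cells. All 12 endothelial markers were detected in the endothelial-like cells, with a sum of 11500 and 11973 CPM, against 103 and 178 CPM in host fibroblasts. The 2 genes lie head to head on chromosome 8 and their annotations overlap by 22 bases. The Col4a2 share of their molecules was nearly the same in both libraries of each class, with 34.4% and 35.0% in endothelial-like cells, 40.8% and 40.5% in host fibroblasts and 29.4% and 30.5% in tumor cells.

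Further type IV chains, known from specialised basement membranes, were highest in the Msln-Wt1 host cluster. Col4a5 stood at 188 CPM in iIRE and 142 CPM in control cells of this cluster on 47 and 28 UMIs, against 10.2 and 9.95 CPM in tumor cells and 21.5 and 24.2 CPM in host fibroblasts. Col4a6, which lies head to head with it on chromosome X at a distance of 1.31 kb, stood at 43.9 and 50.9 CPM on 11 and 10 UMIs, against 1 and 3 UMIs in all tumor cells and 0 and 1 in host fibroblasts. Both genes thus stood out in the same 31 cells. Col4a4 had 24 and 44 UMIs in tumor cells, at most 0.337 CPM.

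In the multiplexin pair the 2 genes went opposite ways. Col18a1, which gives rise to the fragment endostatin, stood at 94.4 CPM in iIRE and 272 CPM in control host fibroblasts, against 410 and 427 CPM in tumor cells. Among the tumor clusters it was highest in a small one led by Penk, Ccn5 and Angpt1, with 876 and 922 CPM, and in the epithelial-type cells it was the most abundant collagen with 369 and 347 CPM. Endothelial-like cells held 445 and 511 CPM. Col15a1, a collagen that ties basement membranes to the matrix below, stood at 868 and 1310 CPM in host fibroblasts and at 378 and 346 CPM in endothelial-like cells, against 10.7 and 12.3 CPM in tumor cells.

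FACIT collagens sit on the surface of fibrils. Col12a1 stood at 815 CPM in iIRE and 1917 CPM in control host fibroblasts, against 14.5 and 16.4 CPM in tumor cells. Col16a1 was more even, with 209 and 181 CPM in host fibroblasts, against 62.2 and 60.2 CPM in tumor cells and 144 and 145 CPM in the Lum-leading ones. Col14a1 had a second source outside both. It stood at 222 and 136 CPM in host fibroblasts on 155 and 45 UMIs, at 131 and 129 CPM in macrophage-like cells on 399 and 425 UMIs, and at 0.843 and 1.37 CPM in tumor cells. Col1a1, far more abundant in fibroblasts, stood at 17.4 and 44.1 CPM in the same macrophage-like cells. Col9a1, a cartilage collagen, had 200 and 204 UMIs in tumor cells and none in host fibroblasts. Given the small UMI total of host fibroblasts, their Col9a1 level could still exceed that of tumor cells, so this contrast is undecided. Col20a1 had 39 and 63 UMIs in tumor cells, Col9a3 24 and 20, Col22a1 11 and 20 and Col9a2 8 and 5, all below 1 CPM. Col20a1 was ranked highest in host fibroblasts, on 4 UMIs and 3.88 CPM over both libraries.

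Of the short-chain network genes, Col8a1, known from vessel walls and the cornea, stood at 759 and 779 CPM in host fibroblasts and 184 and 187 CPM in tumor cells. Col8a2, its partner, was higher in Lum-leading tumor cells than in host fibroblasts. It stood at 4.29 and 18.1 CPM in host fibroblasts on 3 and 6 UMIs, against 43.1 and 48.0 CPM in the Lum-leading tumor cells. It made up 0.562% and 2.27% of the Col8a1 and Col8a2 molecules of host fibroblasts and 7.81% and 8.61% of those of the Lum-leading cells. Col10a1, the collagen of hypertrophic cartilage, was not found in host fibroblasts, where a count of 0 allows up to 4.29 CPM in iIRE and 9.06 CPM in control, and stood at 16.2 and 7.97 CPM in the Lum-leading cells. These levels rest on few cells, since in each library 3 cells of this group held at least 50% of its 236 and 147 UMIs.

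Col7a1, the anchoring fibril collagen that fastens epithelia to the tissue below, stood at 134 CPM in iIRE and 1065 CPM in control host fibroblasts, against 20.3 and 18.6 CPM in tumor cells. The transmembrane genes were rare. Col13a1 was highest in endothelial-like cells, with 7 and 23 UMIs there (47.2 and 73.0 CPM), 0 and 3 in tumor cells and 0 and 1 in host fibroblasts. Col23a1 had 8 and 8 UMIs in host fibroblasts and Col25a1 had 2 and 6. Col17a1, the hemidesmosome collagen, had 31 and 24 UMIs in tumor cells and none in host fibroblasts. Col28a1 had 80 and 110 UMIs in tumor cells and 1 and 0 in host fibroblasts. For Col17a1 and Col28a1 the tumor level was below what a count of 0 allows in host fibroblasts.

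Counted over genes, 26 collagens had at least 50 UMIs over host fibroblasts and tumor cells together in the iIRE library. Of these, 18 were at least 2-fold higher in host fibroblasts and 1, Col18a1 at a log2 ratio of -2.01, was at least 2-fold lower. Among all 13291 genes counted, 8.07% were as much higher and 9.17% as much lower. In the control library 20 of 27 were higher and 0 lower, beside 8.29% and 12.1% of all genes. The median log2 ratio of the counted collagens was 1.87 in iIRE and 2.55 in control, beside -0.12 and -0.13 over all genes. After Col5a2, the highest ratios were those of Col1a2 (5.53 and 5.23), Col15a1 (5.41 and 5.89) and Col12a1 (5.07 and 6.19). Col1a1 (2.78 and 2.74), Col3a1 (2.88 and 2.75) and Col6a3 (0.79 and 1.01) were closer to the tumor cells.

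**Figure D3:**
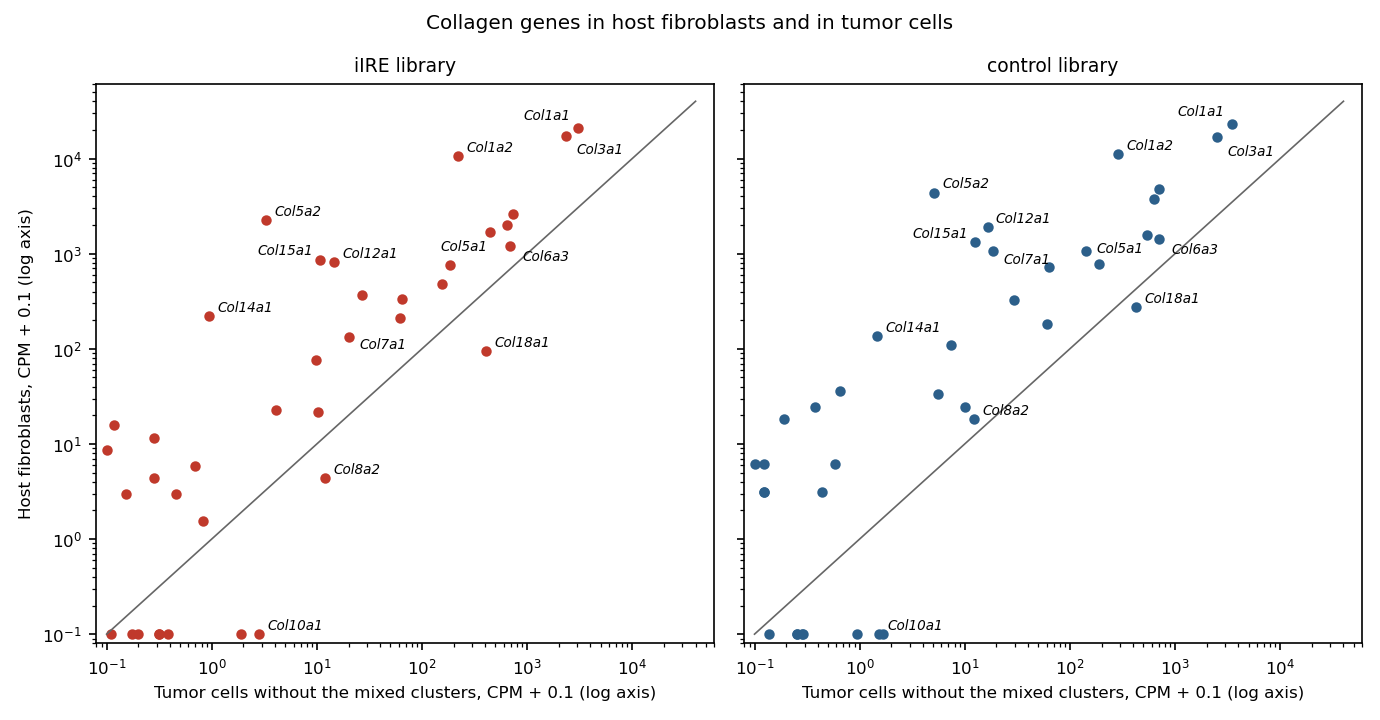
CPM plus 0.1 of each collagen gene in tumor cells (horizontal) and host fibroblasts (vertical), on log axes, for the iIRE library (left) and the control library (right). The line marks equal levels. Col5a2 lies farthest above it in both panels, with Col14a1, Col15a1 and Col12a1 also far above it, and Col18a1, at 94.4 CPM in iIRE and 272 CPM in control fibroblasts, lies below it.

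Set against the Lum-leading cells, the richest of the tumor groups compared, host fibroblasts were closer. Their summed collagen level was 2.74-fold higher in iIRE and 2.87-fold higher in control. In iIRE, 10 of 24 counted genes were at least 2-fold higher in host fibroblasts and 3 at least 2-fold lower, beside 6.61% and 7.89% of all genes. In control, 13 of 25 were higher and 1 lower, beside 6.22% and 10.7%. Col5a2 (6.67 and 7.09) and Col1a2 (3.70 and 3.25) kept the wide gap on the log2 scale. Col8a2 (-1.89 and -1.05) was lower in the fibroblasts in both libraries.

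The genes that act on collagen were read beside it. Of a list of 44 processing genes, which hydroxylate, fold, export, trim and crosslink the chains or bind the fibrils, 41 had enough UMIs. In iIRE 20 were at least 2-fold higher in host fibroblasts than in tumor cells and 0 lower, beside 8.07% and 9.17% of all genes, and in control 22 and 0, beside 8.29% and 12.1%. Lum and Dcn are on this list and on that of the fibroblast markers. The median log2 ratio of the processing genes was 0.97 in iIRE and 1.10 in control, against -0.12 and -0.13 over all genes. Lox, a crosslinking enzyme, stood at 716 and 507 CPM in host fibroblasts, against 1.48 and 1.49 CPM in tumor cells. Adamts2, which removes the amino-terminal propeptide, stood at 317 and 395 CPM, against 0.145 and 0.092 CPM. Serpinh1, the collagen chaperone, differed less, with 3653 and 3483 CPM in host fibroblasts, against 925 and 940 CPM in tumor cells. Of the 13 receptor genes counted from a list of 15, in iIRE 4 were higher and 4 lower in host fibroblasts, and in control 4 and 5, beside the same shares of all genes. Mrc2, a collagen uptake receptor, had log2 ratios of 3.61 and 3.64, and Ddr2, which binds fibrillar collagen, of 1.59 and 1.60.

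Within the tumor, the Lum-leading cells exceeded the epithelial-type cells for most collagens. In iIRE 19 of 24 counted genes were at least 2-fold higher and 0 lower, beside 4.83% and 6.16% of all genes. In control 19 of 25 were higher and 0 lower, beside 4.74% and 5.46%. The summed level was 19.6-fold higher in iIRE and 21.3-fold higher in control. On the log2 scale Col1a1 differed by 7.64 and 7.85, Col1a2 by 5.92 and 6.80, Col3a1 by 5.07 and 5.61 and Col6a2 by 4.85 and 4.39. Col18a1 (-0.10 and 0.18) and Col4a5 (-0.09 and 0.09) were near equal. Of the processing genes 21 of 38 were higher in iIRE and 22 of 40 in control, with 0 lower in both. Lum and Dcn are on that list and also on the marker list that picked the Lum-leading cells, so their place in the count is set by that choice. The laminin receptor chains Itgb4 (-4.05 and -4.08) and Itga6 (-3.66 and -3.74) were lower.

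The 4 pairs of single clusters gave the same direction. The larger Lum-leading cluster over the Krt19 cluster had 19 of 24 collagens at least 2-fold higher in each library and 0 lower, beside 4.96% higher and 4.39% lower of all genes in iIRE and 4.93% and 4.36% in control. Over the Krt7 and Epcam cluster it had 19 of 24 higher in iIRE (beside 9.75%) and 19 of 25 in control (beside 9.52%), with 0 lower (beside 8.54% and 7.59%). For the smaller Lum-leading cluster, 12 of 17 and 14 of 18 were higher than in the Krt19 cluster (beside 4.22% and 4.03%) and 0 lower (beside 4.36% and 4.46%). Over the Krt7 and Epcam cluster 13 of 16 and 15 of 18 were higher (beside 9.38% and 9.79%) and 0 lower (beside 9.68% and 8.83%).

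The level per cell and the number of cells together set the share of each class in all collagen molecules. Host fibroblasts were 0.344% of the kept cells in iIRE and 0.164% in control, and held 2.91% and 1.36% of the collagen UMIs. Tumor cells were 36.7% and 39.7% of the cells and held 66.1% and 70.0%. The mixed Cdkn2a-positive cells were 44.1% and 41.1% of the cells and held 25.3% and 23.8%. The cells with 1 or 2 Cdkn2a UMIs, assigned to neither side, held 4.70% and 3.95%. These shares describe the captured cells and not the tissue. The host fibroblast share counts only cells without a Cdkn2a UMI, so any fibroblast RNA in the other classes is not in it.

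The share of host fibroblasts differed between genes. Among the 22 genes with at least 1000 UMIs it was highest for Col5a2, with 40.9% of its UMIs in iIRE and 32.1% in control. It was 20.8% and 11.6% for Col15a1, 15.3% and 6.07% for Col1a2 and 15.1% and 12.4% for Col12a1. Some rarer genes had shares in this range on few UMIs, such as Col6a6 with 11 of 31 in iIRE and 2 of 17 in control. For Col1a1 it was 3.05% and 1.25%, and for Col3a1 3.11% and 1.21%. Tumor cells held 69.8% and 73.3% of the Col1a1 UMIs, 49.7% and 61.4% of those of Col1a2 and 9.06% and 14.4% of those of Col5a2. The mixed cells held 1072 and 1422 Col5a2 UMIs and cells with 1 or 2 Cdkn2a UMIs 597 and 759, against 1587 and 1453 in host fibroblasts. Of the cells with 1 or 2 Cdkn2a UMIs, 24 in iIRE and 30 in control had at least 20 UMIs of Col5a1 and Col5a2. Their median Col5a2 share was 46.35% and 48.28%. How much of this RNA came from fibroblasts was not tested. Endothelial-like cells held 46.7% and 79.3% of the Col13a1 UMIs but only 2.17% and 4.66% of those of Col4a1. For Col14a1, 46.7% and 45.6% lay in cells without Cdkn2a outside the fibroblast, Msln-Wt1 and endothelial-like classes.

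**Figure D4:**
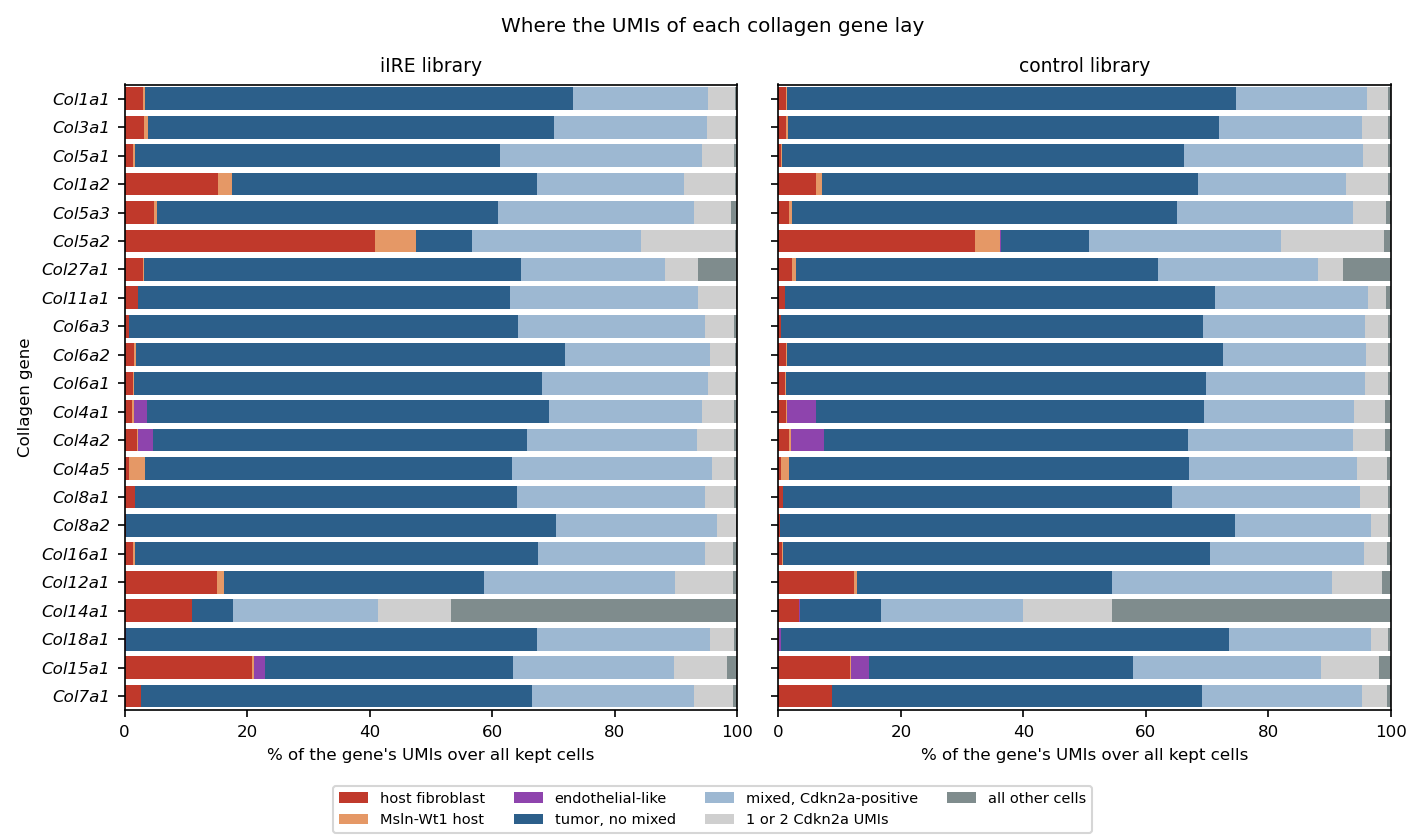
Percent of the UMIs of each of 22 collagen genes with at least 1000 UMIs that lay in each class of kept cells, in the iIRE library (left) and the control library (right). Tumor and mixed Cdkn2a-positive cells hold most of nearly every bar, host fibroblasts 40.9% and 32.1% of Col5a2, and other cells 46.7% and 45.6% of Col14a1.

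In host fibroblasts the iIRE library held less collagen than the control library, while Col1a1, Col3a1 and Col1a2 lay between the fold lines. The log2 ratio of the summed level, iIRE over control, was -0.25 (-0.27 to -0.23). Of 19 genes with at least 50 UMIs, 1 was at least 1.2-fold higher in iIRE and 10 at least 1.2-fold lower. Of all 3154 genes counted in these few cells 29.9% were as much higher and 23.7% as much lower, so a ratio of this size was common. The median of the 19 was -0.47, beside 0.04 over all genes. Ratios are log2 with 10 CPM added, and the intervals given with them are of the plain ratio.

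Col7a1 had the largest difference, with 94 UMIs and 134 CPM in iIRE, against 353 UMIs and 1065 CPM in control (log2 ratio -2.90, interval -3.33 to -2.66). It was found in 25 of 55 iIRE and 20 of 25 control fibroblasts, its per-cell median was 0 in iIRE and 468 CPM in control, and without the highest cell of each library the ratio stayed at -2.90. Col18a1 followed at -1.43 (-2.01 to -1.05) on 66 and 90 UMIs. Col12a1 was at -1.22 (-1.40 to -1.07), found in 42 of 55 iIRE and 20 of 25 control cells, with per-cell medians of 330 and 1039 CPM.

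Col4a1 was lower at -1.13 and Col4a2 at -1.10, with Col4a1 found in 39 of 55 iIRE and 25 of 25 control fibroblasts. Col5a2 (-0.95, interval -1.05 to -0.85), Col6a1 (-0.89, -1.01 to -0.78) and Col6a2 (-0.87, -0.97 to -0.77) followed. Their per-cell quartiles lay lower in iIRE, with 1347, 1983 and 2962 CPM of Col5a2 against 2094, 3863 and 5125 CPM in control, and 906, 1657 and 2694 CPM of Col6a1 against 2094, 3376 and 4891 CPM. The interquartile ranges overlapped for both genes. Col15a1 was at -0.59. Col27a1 was at -0.47 with an interval of -1.16 to 0.13.

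Col14a1 was the gene above the line, at 0.67 (0.22 to 1.22). It was found in 33 of 55 iIRE and 12 of 25 control fibroblasts, and its highest iIRE cell held 36 of 155 UMIs, without which, and without the highest control cell, the ratio was 0.68. Between the lines lay Col16a1 (0.19), Col5a3 (0.14), Col5a1 (0.09), Col3a1 (0.05), Col8a1 (-0.04), Col1a2 (-0.08), Col1a1 (-0.15) and Col6a3 (-0.23). For Col1a2 the per-cell quartiles were 5279, 8884 and 12855 CPM in iIRE and 6686, 9632 and 15194 CPM in control. The fibroblast markers themselves differed between these cells, with 15764 CPM in iIRE and 21566 CPM in control, as did the pericyte markers with 2420 and 1361 CPM. Their part in the collagen differences was not tested.

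Processing genes went both ways in host fibroblasts. Of 34 counted, 8 were at least 1.2-fold higher in iIRE and 9 lower, beside the 29.9% and 23.7% above. Those higher included P4ha2 (0.79), a proline hydroxylase subunit, Plod2 (0.60), a lysine hydroxylase, and Lox (0.49). Those lower included Mia2 (-1.19) and Sec23a (-0.76), which act in the export of large cargo such as procollagen, and Ctsk (-0.69), a collagen-degrading protease.

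In tumor cells the collagens differed little between the libraries. Of 30 genes counted, 0 were at least 1.2-fold higher in iIRE and 2 lower, beside 0.601% and 0.608% of all genes, which were Col1a2 (-0.38) and Col5a1 (-0.27). Over all cells above the Cdkn2a threshold, mixed cells included, 0 of 32 were higher and 1, Col1a2 (-0.34, interval -0.38 to -0.34), was lower, beside 0.73% and 0.679%. The summed log2 ratio was -0.11 in both sets. Col1a1 was at -0.19 in tumor cells, with Col27a1 (0.19), Col10a1 (0.15) and Col4a1 (0.11) at the upper end.

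In the Lum-leading cells 2 of 25 genes were higher and 6 lower, beside 1.63% and 2.29% of all genes. Col1a2 stood at 806 CPM in iIRE and 1170 CPM in control there (-0.53, interval -0.57 to -0.50), with per-cell medians of 46.4 and 267 CPM. Col5a2 (-0.52), Col11a1 (-0.47), Col5a1 (-0.38), Col12a1 (-0.30) and Col1a1 (-0.27) were lower too, all but Col12a1 of the fibrillar group. Col4a1 (0.27) and Col10a1 (0.54) were higher. For Col10a1 a few cells carry the value, as given above. The larger Lum-leading cluster alone gave 3 of 25 higher and 4 lower, beside 1.57% and 2.32%, with Col1a2 at -0.50. Of the 39 processing genes counted in these cells, 0 were higher and 4 lower, among them P4ha2 (-0.46) and Loxl2 (-0.30), a crosslinking enzyme.

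Col1a2 was below the line in other tumor groups as well, at -0.35 in hypoxic cells, where it was the only gene of 21 lower and 0 were higher (beside 3.51% lower and 4.21% higher of all genes). In the larger Penk-leading cluster it was at -0.41, with 4 of 20 genes higher and 1 lower (1.27% and 1.74% of all genes). In a cluster led by Slurp1 and Has1 it was at -0.72, with 1 of 17 higher and 3 lower (2.11% and 3.38%). The dividing cells went the other way. There 5 of 24 genes were higher and 0 lower, beside 1.28% and 0.93%, namely Col4a1 (0.43), Col4a2 (0.34), Col27a1 (0.32), Col6a2 (0.27) and Col6a1 (0.27), and Col1a2 stood at 231 CPM in iIRE and 197 CPM in control. The dividing group pools several clusters. One of them was 427 of 1277 cells in iIRE and 399 of 1329 in control, and held 10583 of 14131 and 9956 of 13798 Col6a1 UMIs. The hypoxic group pools several clusters too, one of which was 133 of 693 cells in iIRE and 303 of 975 in control. The part of these mixes in the ratios was not tested. Within the mixed Cdkn2a-positive cells 0 of 28 genes were higher and 5 lower, beside 2.77% and 1.96%. Whether the tumor groups differ from each other in these ratios was not tested.

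In the epithelial-type cells 2 of 12 genes were higher and 4 lower, beside 6.6% and 7.51%. Col3a1 (0.36, interval 0.23 to 0.53) and Col4a1 (0.27) were higher, and Col6a3 (-0.54, -0.69 to -0.44), Col6a1 (-0.50), Col6a2 (-0.45) and Col5a1 (-0.29) lower. The Krt7 and Epcam cluster was 84 of 249 of these cells in iIRE and 59 of 223 in control. It held 507 and 416 CPM of collagen, against 1489 and 1504 CPM in the Krt19 cluster. The part of this difference in mix in the ratios was not tested. In endothelial-like cells 0 of 4 genes passed the line in either direction, beside 21.8% and 28.7% of all genes, with Col4a1 at -0.19 and Col4a2 at -0.23. In the Msln-Wt1 host cluster 9 of 15 genes were higher and 4 lower, beside 29.1% and 23.4%. Col3a1 (0.80), Col1a1 (0.57) and Col1a2 (0.53) were at the top, and Col8a1 (-1.53), Col4a2 (-1.08) and Col4a1 (-1.05) at the bottom, on 18 iIRE and 13 control cells.

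**Figure D5:**
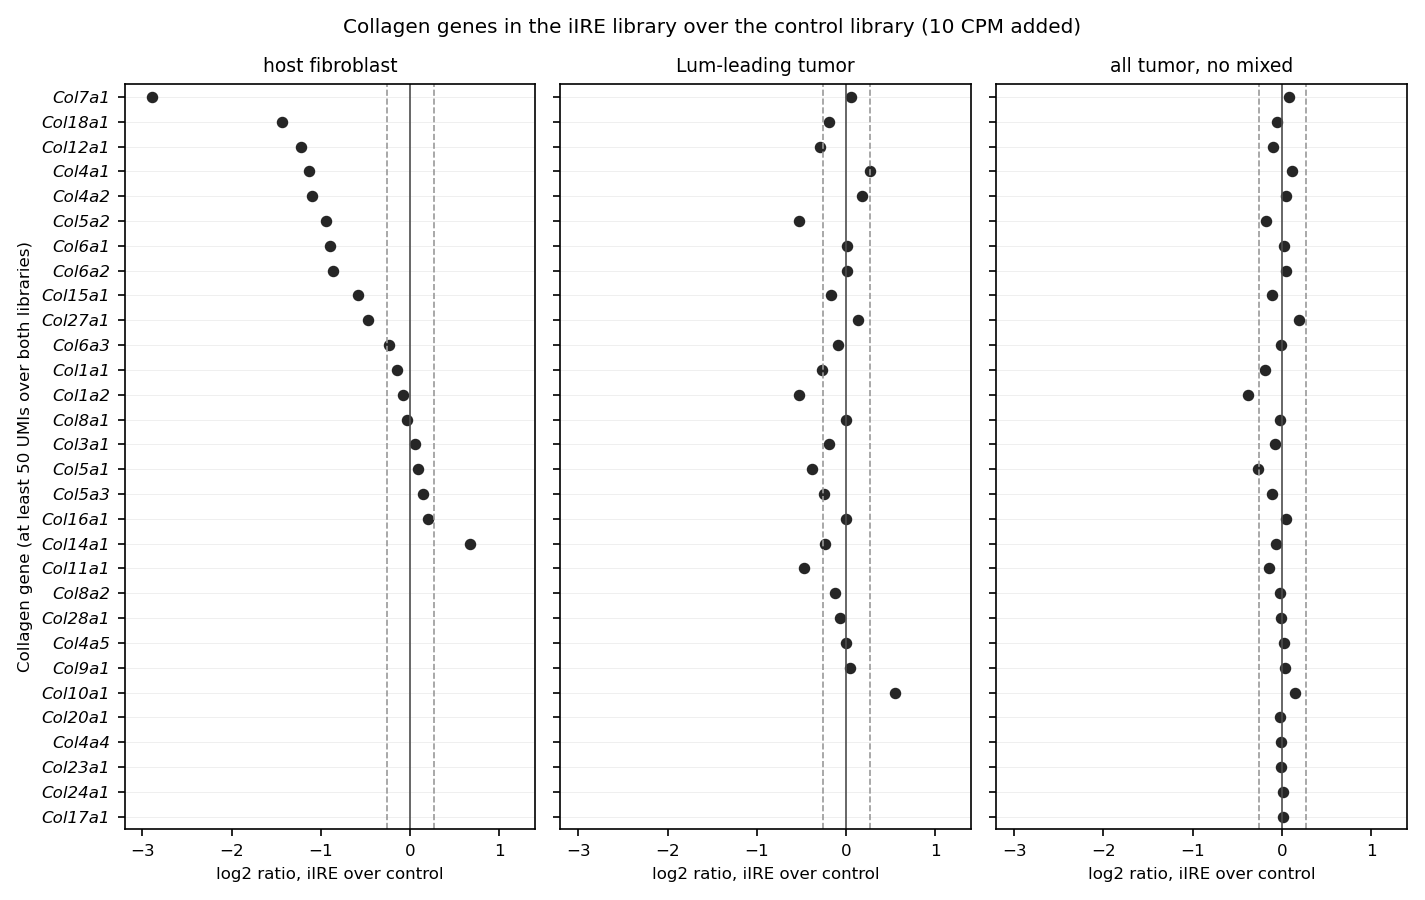
Log2 ratio of each collagen gene, iIRE over control, with 10 CPM added, in host fibroblasts (left), Lum-leading tumor cells (middle) and all tumor cells without the mixed clusters (right). Only genes with at least 50 UMIs are drawn, and dashed lines mark 1.2-fold. Col7a1 lies at -2.90 in host fibroblasts, and Col1a2 lies below the line in both tumor panels at -0.53 and -0.38 but not in host fibroblasts at -0.08.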

How the data were processed

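The authors aligned 5′ single-cell reads to mm10 with STAR and counted UMIs with Cell Ranger. The matrix header names version 7.0.1, while the study's methods name an earlier version. The deposited values are raw counts of UMIs per gene and barcode, without normalization, with both libraries in 1 matrix (222153118 UMIs in iIRE, 247105192 in control) and the barcode ending giving the library. The libraries shared 458 barcode sequences, which were kept as separate cells.

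Cells needed 200 genes, 1000 UMIs, a log10 genes to log10 UMIs ratio of 0.7, and at most 5% mitochondrial and 5% hemoglobin UMIs, after the study's methods. Doublets were scored against simulated sums of cells, and 0.8% per 1000 cells was removed (15.1% in iIRE, 14.2% in control). Host and tumor cells were clustered by Leiden (leidenalg 0.10.2, resolution 1.0, 20 neighbors, 30 components, 2000 variable genes without collagens). Clusters of Cdkn2a-positive cells with Y-linked genes at 1 CPM or more, or with fewer than 100 cells, were called mixed. Host classes and tumor groups needed 3 listed markers among 50 leading genes found in 20% of cells, and more than any other list.

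UMIs were summed by class and library (CPM). Ratios needed 50 UMIs and had 10 CPM added. Counts have exact Poisson and shares exact Clopper-Pearson intervals. Fold lines were 1.2 between libraries and 2 between classes. The code was tested on simulated data. edgeR 4.0.16 served only for TMM scaling as an alternative. Gene coordinates are from GENCODE vM21. All 39 genes are accounted for. Full values go to the 5 highest genes of 4 classes (host fibroblast, Lum-leading, epithelial-type, endothelial-like), the 3 highest and 3 lowest ratios per class, and the highest gene of each structural group. The collagen genes and lists were chosen with earlier results of these data known. The alternatives are given in the closing section.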

Additional observations from a re-analysis of the deposited data

How the results depend on the processing

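No paired analysis was possible because each group is 1 library. None of the results named here changed direction in the alternatives run. The number of genes led by host fibroblasts stayed between 20 and 25, against 21. The log2 ratio of summed collagens in host fibroblasts over all Cdkn2a-positive cells, 2.75 in iIRE and 2.89 in control, became 2.56 and 2.67 with no doublets removed, 2.83 in control at 10% mitochondrial UMIs, 2.79 in iIRE with fibroblasts that held a Y-linked UMI and 2.81 in control with TMM scaling. The share of collagen UMIs in host fibroblasts, 2.91% and 1.36%, became 2.55% and 1.19% with no doublets removed, 1.45% in control at 10% mitochondrial UMIs, and 2.29% and 1.05% with the Y-linked condition.

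Between the libraries, host fibroblasts had 3 collagens higher and 19 lower at a minimum of 1 UMI, against 1 and 10. All Cdkn2a-positive cells had 2 higher and 5 lower with 1 CPM added, and 0 lower at a 1.5-fold line, against 0 and 1. With 50 CPM added, 12 rather than 19 collagens were at least 2-fold higher in Lum-leading over epithelial-type cells in iIRE. With no doublets removed no epithelial-type cluster was formed, so that comparison has no value there. The epithelial-type class, 249 iIRE and 223 control cells in the main run, also changed in other settings. It held 93 and 70 cells at 10% mitochondrial UMIs, 106 and 82 at a threshold of 1 Cdkn2a UMI, and 96 and 71 at resolution 0.5. At resolution 2.0 it held 261 and 236. The counts in these settings rest on other sets of cells. Under TMM scaling the median of all genes moved by -0.14 in host fibroblasts over tumor cells in control, and 33.3% of all genes were higher and 21.7% lower between the libraries in host fibroblasts.

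Alternatives added after the data were seen left out the mixed clusters (log2 ratio 2.79 in iIRE and 2.94 in control, 2 collagens lower in tumor cells) or added the Msln-Wt1 cluster to the fibroblasts (2.52 and 2.42, a share of 3.36% and 1.57%, 3 collagens higher in iIRE). With 25 control fibroblasts, ratios of genes under 50 UMIs were not counted, and the spread between mice is unknown.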
